A study of Homo sapiens with 21 samples.

Results

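The integrin and laminin subunit genes were followed in 17 human cancer cell lines, of which 7 were parental and 10 were treatment-resistant. Members were defined by gene name, though the choice was made with earlier results of these data known. They are the protein-coding genes of the integrin alpha chains (ITGA1 to ITGA11, ITGAV, ITGAE, ITGAL, ITGAM, ITGAX and ITGA2B), the integrin beta chains (ITGB1 to ITGB8) and the laminin alpha, beta and gamma chains (LAMA, LAMB and LAMC). Of 37 such genes, 35 are described, matched by their Ensembl identifier among the 53515 genes counted. They were 24 integrins and 11 laminins, and ITGB3 was not analysed here. RNA was sequenced from 21 libraries. Sorafenib, a kinase inhibitor, was the treatment of HepG2S1 and HepG2S3, which derive from the liver cancer line HepG2. 5-fluorouracil was that of PancB1Q and PancB1V, which derive from the pancreatic line PancVB (Panc 03.27). Erlotinib and gefitinib, inhibitors of the EGF receptor, were used on lung adenocarcinoma lines: HCC4006ER resists erlotinib and derives from HCC4006P1, and HCC4006GR and HCC827GR resist gefitinib and derive from HCC4006P2 and HCC827P. U10 and U100 resist the PARP inhibitor olaparib and derive from the ovarian line UWB1.289, and IGROV-1/CDDP resists cisplatin and derives from the ovarian line IGROV-1. Each resistant line was made by long exposure to rising doses, so that it is 1 selected population grown beside its parent rather than a set of independent selections. There were 2 libraries of each of HepG2, HepG2S3, HCC4006P1 and HCC4006ER, and 1 of each of the remaining 13 lines. The p-values below therefore measure the spread between 2 libraries of a line, which may be technical.

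Integrins are surface receptors made of 1 alpha and 1 beta chain, and the pairing decides what the cell can hold on to. Laminins are the cross-shaped trimers of basement membranes, each with an alpha, a beta and a gamma chain. Integrin beta 4 (ITGB4) pairs with alpha 6 (ITGA6) and anchors epithelial cells in hemidesmosomes to laminin. LAMA3 and LAMB3 are laminin chains of epithelial basement membranes. Integrin beta 1 (ITGB1) pairs with most alpha chains. Integrin beta 6 (ITGB6) and beta 8 (ITGB8) pair with alpha V (ITGAV) and can activate latent TGF-beta, and integrin alpha 5 (ITGA5) with beta 1 is the main fibronectin receptor. Alpha 1, 2, 10 and 11 bind collagens. Epithelial cells that turn mesenchymal are known to change these receptors, and the study asked what treatment-resistant lines that show such changes have in common.

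The promoters of 6 genes are shown because 4 of them (LAMA3, LAMB3, ITGB6 and ITGA2) were lower and 2 (ITGA5 and ITGA11) higher in HCC4006ER, 1 of the 2 resistant lines with replicate libraries. Each line gives the 250 bases before the transcription start, 5′ to 3′ on the gene's strand, from RefSeq on GRCh38.p14. Capitals mark the E-box CACCTG, also read as CAGGTG from the other strand, and the AP-1 motif TGANTCA, which reads the same on both strands.
LAMA3: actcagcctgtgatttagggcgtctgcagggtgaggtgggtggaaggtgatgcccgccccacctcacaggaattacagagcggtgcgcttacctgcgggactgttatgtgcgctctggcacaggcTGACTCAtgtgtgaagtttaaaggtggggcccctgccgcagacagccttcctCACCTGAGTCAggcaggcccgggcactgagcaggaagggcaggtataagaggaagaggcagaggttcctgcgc
LAMB3: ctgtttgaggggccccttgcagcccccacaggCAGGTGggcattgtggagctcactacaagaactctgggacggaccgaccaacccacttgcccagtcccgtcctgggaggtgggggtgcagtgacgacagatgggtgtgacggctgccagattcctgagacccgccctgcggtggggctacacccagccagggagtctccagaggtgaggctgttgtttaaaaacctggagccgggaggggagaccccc
ITGB6: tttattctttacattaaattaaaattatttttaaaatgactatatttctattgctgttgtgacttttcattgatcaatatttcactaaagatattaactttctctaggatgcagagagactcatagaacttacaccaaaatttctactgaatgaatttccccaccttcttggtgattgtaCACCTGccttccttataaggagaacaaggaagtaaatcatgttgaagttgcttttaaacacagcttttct
ITGA2: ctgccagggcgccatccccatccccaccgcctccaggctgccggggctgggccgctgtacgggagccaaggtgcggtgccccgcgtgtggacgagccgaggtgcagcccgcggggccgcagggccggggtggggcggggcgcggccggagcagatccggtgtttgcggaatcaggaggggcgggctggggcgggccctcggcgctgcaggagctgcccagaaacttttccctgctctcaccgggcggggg
ITGA5: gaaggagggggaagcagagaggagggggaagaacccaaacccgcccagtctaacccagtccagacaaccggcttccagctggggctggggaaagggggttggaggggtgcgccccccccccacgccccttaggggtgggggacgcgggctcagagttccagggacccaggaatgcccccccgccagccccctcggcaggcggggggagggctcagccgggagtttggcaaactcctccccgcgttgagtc
ITGA11: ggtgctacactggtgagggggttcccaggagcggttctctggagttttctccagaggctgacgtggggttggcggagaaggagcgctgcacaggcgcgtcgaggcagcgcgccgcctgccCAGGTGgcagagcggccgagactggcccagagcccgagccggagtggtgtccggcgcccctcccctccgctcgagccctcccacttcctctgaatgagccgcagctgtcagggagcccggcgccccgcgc
The windows lie at chr18:23872770-23873019 (plus strand, LAMA3), chr1:209652426-209652675 (minus strand, LAMB3, the first of 3 listed starts), chr2:160200273-160200522 (minus strand, ITGB6), chr5:52989102-52989351 (plus strand, ITGA2), chr12:54419267-54419516 (minus strand, ITGA5) and chr15:68432164-68432413 (minus strand, ITGA11). The LAMA3 window held 1 E-box and 2 AP-1 motifs, and the E-box shares bases with the second AP-1 motif. LAMB3, ITGB6 and ITGA11 held 1 E-box each, and the windows of ITGA2 and ITGA5 held neither motif. Among the other members called lower in HCC4006ER, a window of ITGA6, ITGB5 and LAMA5 held the E-box. Those of ITGB8, LAMA2 and LAMA4 did not. The windows of ITGA1, ITGA4, ITGAV and LAMB2, called higher, held none. Not every called member had a window, and whether the motif has a part in the changes was not tested. The AP-1 motif was in the LAMA3 window alone of these 6. Another listed start of LAMB3 (chr1:209651375-209651624) also held 1 AP-1 motif. Over all 35114 promoter windows of the table, 17.5% held the E-box and 6.57% the AP-1 motif. Of the 33 windows listed for 26 members, 8 held the E-box and 2 the AP-1 motif. A match of letters describes the window and is no evidence of a bound site.

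Libraries held 9851195 to 36639473 counts on genes, so that 3 counts corresponded to between 0.0819 and 0.305 CPM, counts scaled to a total of 1000000 on genes. HCC4006P1 replicate 1 had no counts from GARS1 on chromosome 7 onwards or on chromosomes 8, 9 and X. LAMB1, LAMB4 and LAMC3 lie there, and their HCC4006P1 value is that of replicate 2. Liver markers (ALB, APOA1, TTR and AFP) summed to 16437 CPM in HepG2, to 17.2 CPM in HepG2S3 and to 0 in HepG2S1, while KRT7, an epithelial keratin that hepatocytes lack, was at 1.03 CPM in HepG2 and at 2733 and 2912 CPM in HepG2S1 and HepG2S3. The lung markers NKX2-1, NAPSA and SFTPB summed to 266 CPM in HCC4006P2 and to 0.364 CPM in HCC4006P1, although both stocks are labelled as HCC4006. PDX1, a pancreatic factor, stayed at or under 0.201 CPM in the 3 lines of the PancVB family, in which KRT7, also a duct marker, was at 876 to 2543 CPM and MUC1 at 1.37 to 3.73 CPM. PAX8 was high in the ovarian lines (357 to 664 CPM), in which WT1 reached at most 0.488 CPM. MUC16, also listed as an ovarian marker, ranged from 30.1 to 103 CPM across the UWB1.289 family. The cisplatin pair had no more than 0.554 CPM of it. The lung lines HCC827P (618 CPM) and HCC827GR (238 CPM) held more MUC16 than any ovarian line. Whether these differences in identity have a part in the changes below was not tested. The 4 leukocyte markers summed to between 4.91 and 318 CPM, most of it CD68 in every line, a lysosomal protein of macrophages that other cells also make, while PTPRC and CD3E, which define leukocytes, reached at most 0.665 CPM and 0.0662 CPM in any line, and GP9, which defines platelets, was at 0 throughout.

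Levels differed widely among members. In bulk RNA a lower level from fewer cells of a kind and one from less RNA per cell cannot be told apart. A total of 10 members reached 10 CPM in all 17 lines: ITGA3, ITGA6, ITGAV, ITGB1, ITGB5, LAMA3, LAMA5, LAMB1, LAMB2 and LAMC1. These include the shared beta 1 chain and the widely used laminin chains alpha 5, beta 1 and gamma 1. Another 14 reached 10 CPM in some lines, and 11 in none (ITGA7, ITGA8, ITGA9, ITGA10, ITGAL, ITGAM, ITGAX, ITGA2B, ITGB7, LAMA2 and LAMB4). ITGA8 stayed under 1 CPM everywhere. ITGB1 was the steadiest of the well expressed integrins, between 757 CPM in PancB1V and 2696 CPM in HCC4006GR. It was the only member at or over 10 CPM in some line that moved 2-fold in none of the 10 pairs, with log2 fold changes from -0.51 to 0.94. ITGB6, by contrast, ran from 0.04 CPM in HepG2 to 941 CPM in HCC4006GR, and LAMB3 from 0.83 CPM in IGROV-1/CDDP to 1054 CPM in HCC4006GR. With levels under 0.305 CPM set to that floor, 11 members spanned more than 100-fold across lines. On GRCh37, LAMB3 lies at chr1:209788215-209825770, LAMA3 at chr18:21269417-21536186, ITGB6 at chr2:160956178-161056824 and ITGB4 at chr17:73717408-73753899, and no exon of these 4 genes overlaps that of another gene. Exons of ITGA6, ITGA7, ITGA9, ITGA10, ITGAV, ITGB1, ITGB2, ITGB7, LAMA2, LAMA4, LAMA5 and LAMB1 overlap those of genes on the other strand, and reads there may be shared.

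**Figure D1:**
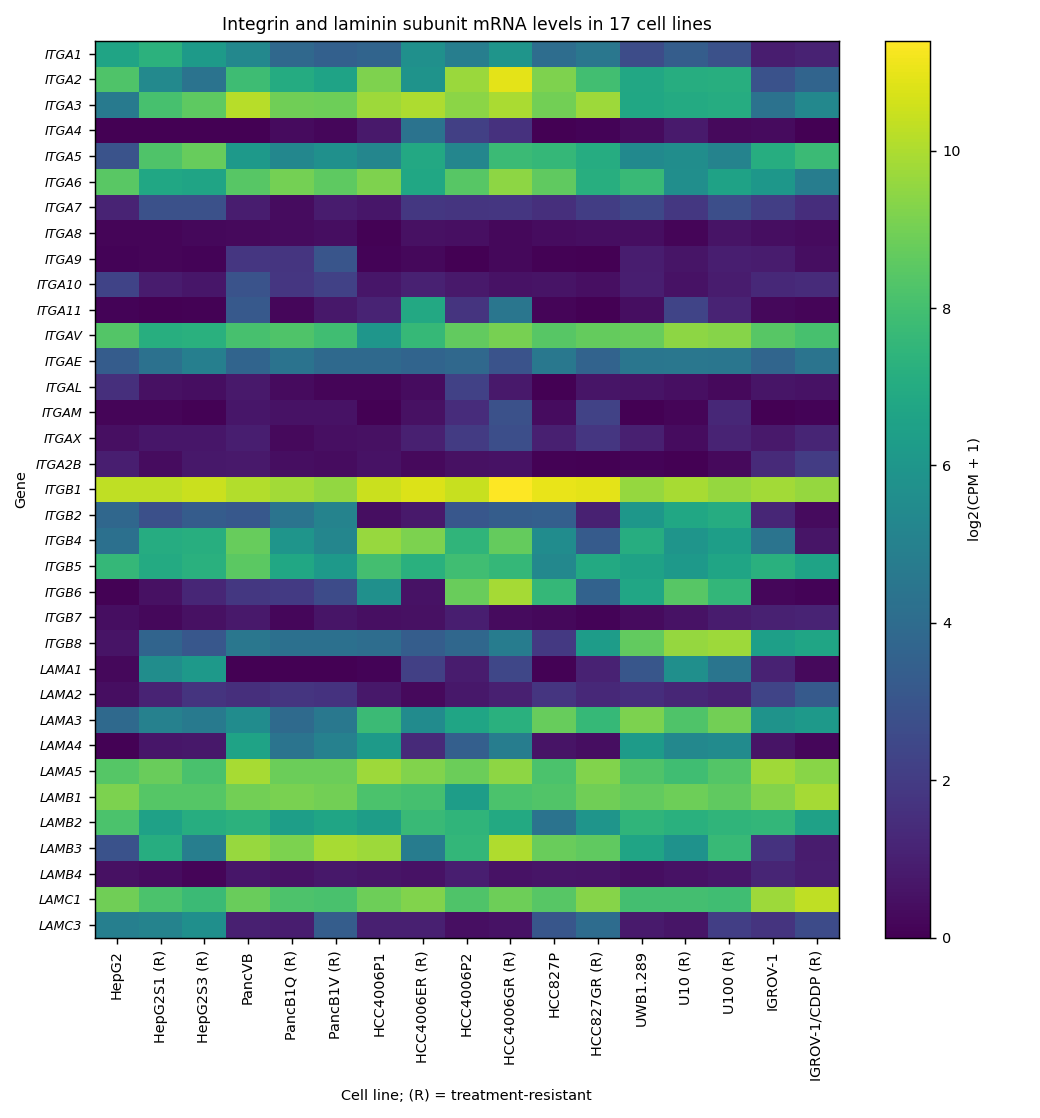
Level of 35 integrin and laminin subunit genes (rows) in 17 cell lines (columns), as log2(CPM + 1) from dark (0) to yellow (highest), with resistant lines marked (R) and replicate libraries averaged. ITGB1 is bright in every line (757 to 2696 CPM), whereas ITGB6 is dark in HepG2 (0.04 CPM) and bright in HCC4006GR (941 CPM).

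Per kilobase of exon, the alpha integrin chain at the highest level differed among lines. ITGA6, ITGA5 and ITGA3 led in 4 lines each, ITGA2 in 3 and ITGAV in 2. In HepG2 the leading chain was ITGA6, at 52.9 CPM per kb, and in both resistant derivatives it was ITGA5, at 40.7 CPM per kb in HepG2S1 and 57.7 CPM per kb in HepG2S3. Among laminin alpha chains, LAMA5 led in 13 lines and LAMA3 in 4, namely HCC827P and the 3 lines of the UWB1.289 family. The methods also name a 3′ end kit without saying for which libraries, and a level per length would not hold for such a library.

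Across the 17 lines, ITGA6 and its partner ITGB4 had a Pearson r of 0.51 on log2(CPM + 1) and a Spearman rho of 0.31. For the laminin chains LAMA3 and LAMB3 the values were 0.23 and 0.13. ITGAV had an r of 0.47 and a rho of 0.62 with its partner ITGB6, 0.52 and 0.59 with ITGB8, and -0.32 and -0.31 with ITGB5. These values describe the lines only, since lines of 1 parent are not independent points.

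The next question was how the family differed between resistant and parental lines. A member counts as 2-fold changed where its log2 fold change of CPM + 1 was at or past 1 and it had at least 1 CPM in either line. No p is given for pairs with 1 library on a side. In HepG2S1, 8 of 24 members were 2-fold higher and 7 lower, beside 25.5% and 18.4% of all genes. In HepG2S3 the counts were 10 and 7 of 25 (background 27.3% and 17.7%). In PancB1Q 1 member was higher and 9 of 25 lower (6.10% and 9.41%), and in PancB1V 3 were higher and 8 of 25 lower (8.89% and 7.25%). HCC4006ER had 8 higher and 6 lower of 26 (13.3% and 10.1%). HCC4006GR had 12 higher and 1 lower of 27 (7.75% and 7.47%). HCC827GR had 6 higher and 6 lower of 25 (10.6% and 7.67%). The remaining pairs moved less: 3 higher and 2 lower of 25 in U10 (6.27% and 5.11%), 6 higher and 1 lower of 27 in U100 (6.43% and 1.73%) and 1 higher and 3 lower of 27 in IGROV-1/CDDP (5.55% and 7.21%). In HCC4006GR nearly all changed members were thus higher, beside a background that split about evenly. In the HepG2 pairs the family changed within a broad change of the transcriptome.

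Most members with at least 10 CPM in some line did not keep 1 direction. Of the 24 members with at least 10 CPM in some line, 15 were 2-fold higher in at least 1 pair and 2-fold lower in at least 1 other, which is 62.5% of them, beside 24.6% of all 13262 genes at that level. Of the other members at that level, 7 were 2-fold higher only, LAMC1 was lower only and ITGB1 was neither. ITGB4 was 2-fold higher in 3 pairs and lower in 5. ITGA6 was lower in 7 pairs and higher in 1. LAMA1, the laminin alpha chain of early embryonic basement membranes, was 2-fold higher in 7 pairs and 2-fold lower in none. It did drop in the cisplatin pair, from 31 counts to 6. With the pseudocount of 1 CPM that drop stayed under 2-fold (log2 fold change -0.78, counting interval -1.23 to -0.24). PancB1Q, PancB1V and their parent had 0 counts of LAMA1. Pairs that share a parental line also share its libraries, so that HepG2S1 and HepG2S3, PancB1Q and PancB1V, and U10 and U100 are not independent in these numbers of pairs.

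**Figure D2:**
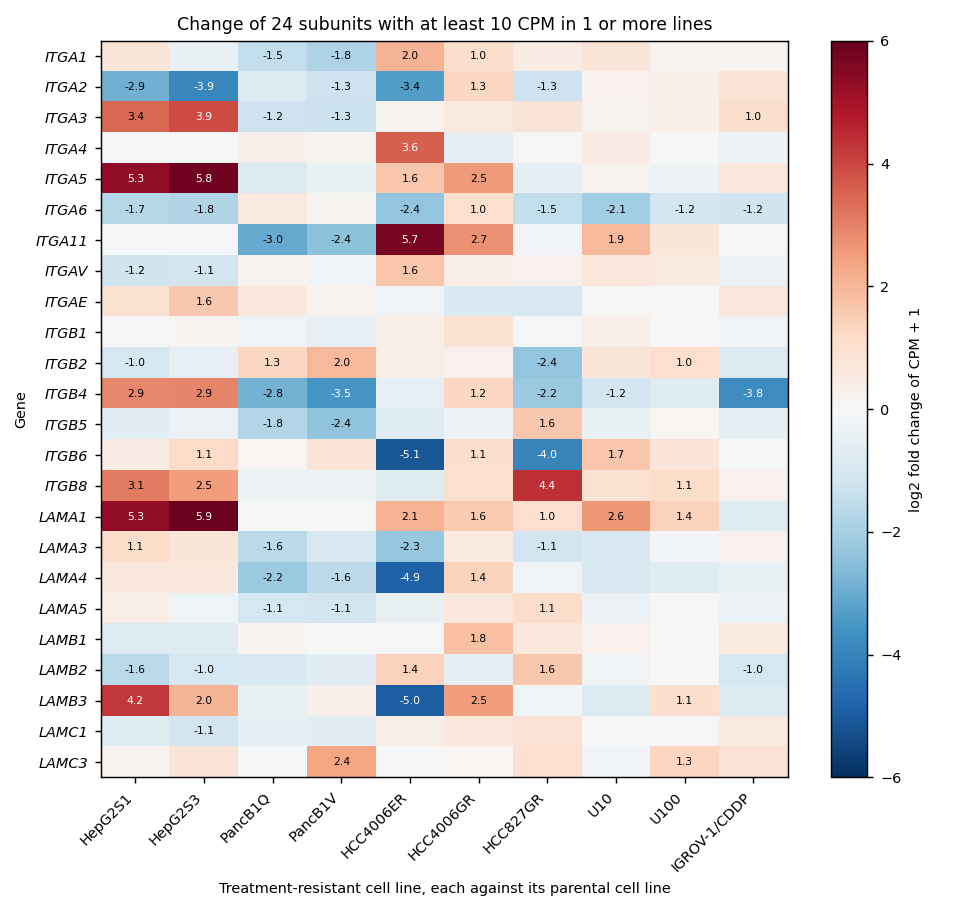
Log2 fold change of CPM + 1 for the 24 members with at least 10 CPM in some line (rows) in each resistant line against its parent (columns), red for higher and blue for lower in the resistant line, with values printed at or past 1 in size. ITGA6 is blue in 7 of 10 columns, LAMA1 is red in 7, and LAMB3 and ITGB6 are blue in HCC4006ER and red in HCC4006GR.

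The 2 pairs with 2 libraries on each side were tested with the quasi-likelihood test of edgeR, with p adjusted over all genes. In HepG2S3 against HepG2, 10 of 30 members tested were higher and 12 lower, where 31.4% and 32.1% of all 16929 genes were. In HCC4006ER against HCC4006P1, 9 of 26 were higher and 11 lower, where 23.7% and 24.5% of all 13644 genes were. A total of 14 members passed in both comparisons. Of these, ITGA5, ITGA7 and LAMA1 were higher in both, ITGA2, ITGA6 and ITGB5 lower in both, and 8 moved in opposite directions. Of these 8, ITGA1, ITGAV and LAMB2 fell in HepG2S3 and rose in HCC4006ER, and ITGB4, ITGB6, ITGB8, LAMA2 and LAMA4 did the reverse. The share of all genes that passed in both comparisons, or in opposite directions, was not counted. The numbers passing in both therefore describe the members only. With 1 library left out, some of these calls were lost: in HepG2S3 those of ITGA1 and ITGB5 without either HepG2S3 library (edgeR adjusted p up to 0.112 and 0.12), in HCC4006ER those of ITGB4 and ITGB8 without replicate 2 (0.232 and 0.0847), and that of LAMA2 without either HCC4006ER library or without HCC4006P1 replicate 2 (up to 0.273). Without HCC4006ER replicate 2, 7 members were lower in place of 11, and without HepG2S3 replicate 2, 7 were lower in HepG2S3 in place of 12.

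**Figure D3:**
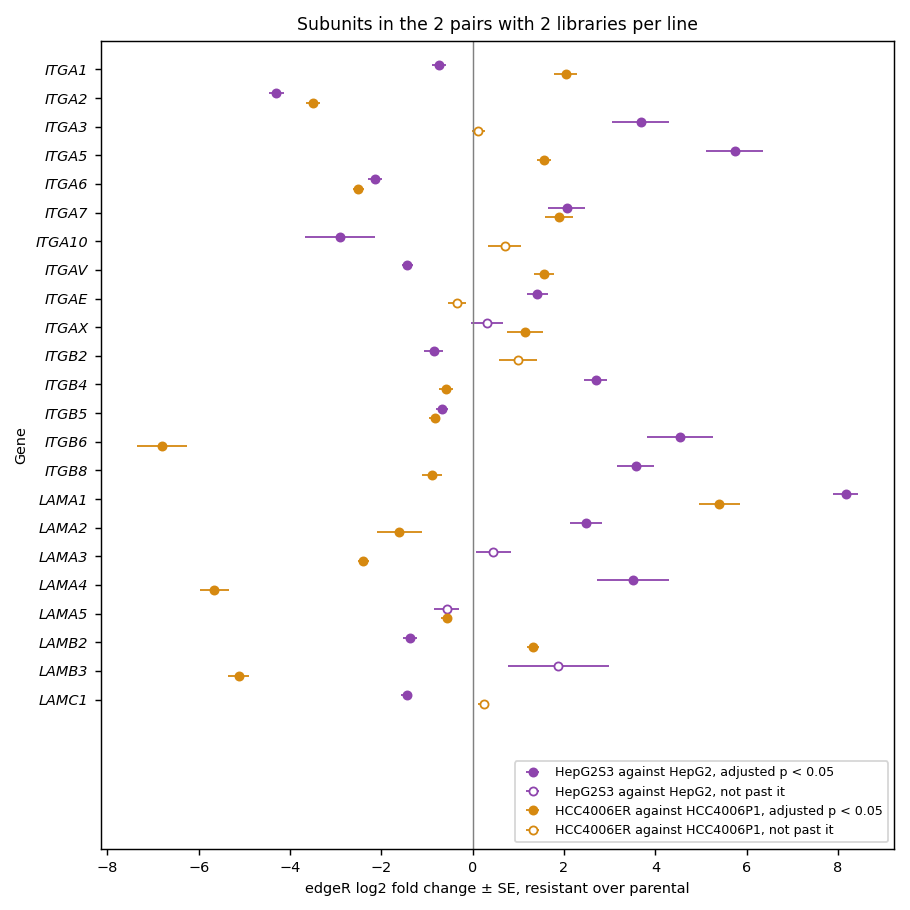
edgeR log2 fold change of resistant over parental libraries (points) with its SE (bars) for 23 members tested in both replicated pairs and past an adjusted p of 0.05 in at least 1, purple for HepG2S3 and orange for HCC4006ER, with open points where the threshold was missed. ITGA2 and ITGA6 lie left of 0 and ITGA5 and LAMA1 right of 0 in both pairs, while LAMA4 and ITGB6 lie on opposite sides.

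In HepG2S3 the alpha chains ITGA3, ITGA5 and ITGA7 rose, and the laminin-binding ITGA6 and the collagen-binding ITGA1, ITGA2 and ITGA10 fell, though ITGA10 did not pass without HepG2S3 replicate 2 (edgeR adjusted p = 0.0541). ITGA1 did not fall in HepG2S1: it was at 98.3 CPM in HepG2, 73.5 CPM in HepG2S3 and 161 CPM in HepG2S1. ITGA5 had 2.89 and 10.0 CPM in the HepG2 libraries and 441 and 411 CPM in the HepG2S3 libraries, and 301 CPM in HepG2S1. The groups did not overlap, and the edgeR log2 fold change in HepG2S3 was 5.74 ± 0.62 (SE, n = 2 and 2, adjusted p = 0.000985). ITGA3, a laminin receptor chain, had 10.3 and 37.6 CPM in HepG2 and 396 and 362 CPM in HepG2S3 (3.67 ± 0.62, edgeR adjusted p = 0.00428). The HepG2 libraries differed more than 3-fold for both genes, and the edgeR log2 fold change of ITGA5 was 5.10 without HepG2 replicate 1 and 6.87 without replicate 2, and that of ITGA3 was 3.02 and 4.87. In these fits the single HepG2 library is assumed to vary like those of HepG2S3. ITGB4 had 20.6 and 13.9 CPM in HepG2, 156 and 122 CPM in HepG2S3 and 133 CPM in HepG2S1 (2.69 ± 0.26 in HepG2S3, edgeR adjusted p = 0.000657). ITGB4 thus rose where its partner ITGA6 fell, from 311 and 396 CPM to 99.6 and 99.8 CPM (-2.14 ± 0.16, edgeR adjusted p = 0.000307). ITGA2, the collagen receptor chain of epithelia, fell from 308 and 303 CPM to 17.3 and 21.3 CPM (-4.30 ± 0.17, edgeR adjusted p = 5.23e-05), and was at 40.5 CPM in HepG2S1. ITGAV fell from 327 and 323 CPM to 151 and 149 CPM.

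Laminin chains shifted as well. LAMA1 had 5 and 9 counts in the HepG2 libraries and 2261 and 2199 in those of HepG2S3, which is 0.14 and 0.26 CPM against 70.6 and 71.8 CPM, and it had 47.4 CPM in HepG2S1. The log2 fold change of CPM + 1 was 5.91, with a counting interval of 5.72 to 6.06. The chains LAMB1, LAMB2 and LAMC1, which partner many alpha chains, fell by 1.07, 1.37 and 1.44 on the log2 scale (edgeR adjusted p = 0.00182, 0.00107 and 0.00046). The LAMB1 call was kept in 8 of 9 alternatives. It was lost in 1 edgeR fit over all 21 libraries (log2 fold change -1.07, adjusted p = 0.793). That fit includes HCC4006P1 replicate 1, which is at 0 for LAMB1 because the gene lies in the stretch without counts. LAMB3 had 0.60 and 12.1 CPM in the HepG2 libraries, 30.6 and 26.8 CPM in those of HepG2S3 and 138 CPM in HepG2S1. The HepG2S3 difference did not pass the test (1.88 ± 1.11, edgeR adjusted p = 0.19), since the HepG2 libraries lay far apart. ITGB6 and LAMA4 passed upwards from 0 and 3 counts in HepG2, at which a fitted fold change depends on the prior count. Both stayed at or under 1.31 CPM in HepG2S3.

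The mRNAs of LAMA3 and LAMB3 fell in HCC4006ER. LAMB3 had 709 and 1006 CPM in the HCC4006P1 libraries and 27.5 and 25.6 CPM in those of HCC4006ER (-5.13 ± 0.24, edgeR adjusted p = 1.03e-05). LAMA3 had 229 and 208 CPM against 44.9 and 44.3 CPM (-2.40 ± 0.12, edgeR adjusted p = 1.47e-05). No resistant library reached a parental one for either chain. The receptor chains did not fall alike: ITGA6 had 615 and 554 CPM against 109 and 113 CPM (-2.50 ± 0.12), while ITGB4 had 889 and 694 CPM against 619 and 511 CPM (-0.59 ± 0.15, edgeR adjusted p = 0.0175). The ITGB4 call was kept in 8 of 12 alternatives, and its edgeR adjusted p was 0.232 without HCC4006ER replicate 2.

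ITGB6 fell the furthest of the members in HCC4006ER. It had 73.4 and 29.6 CPM in HCC4006P1 and 0.51 and 0.46 CPM in HCC4006ER (-6.81 ± 0.54, edgeR adjusted p = 0.000104). The parental libraries differed among themselves, yet neither came near the resistant ones. LAMA4, a laminin chain of vessels and mesenchyme, had 87.0 and 60.3 CPM against 2.07 and 1.03 CPM, so that a chain not typical of epithelium fell together with LAMA3 and LAMB3 (-5.66 ± 0.31, edgeR adjusted p = 2.21e-05). ITGA2 fell from 670 and 509 CPM to 58.4 and 53.9 CPM. ITGA11, a collagen receptor chain of fibroblasts, rose from 1.48 and 0.97 CPM to 125 and 107 CPM (6.44 ± 0.21, edgeR adjusted p = 4.12e-06). ITGA4, which binds fibronectin and VCAM-1, rose from 0.74 and 0.67 CPM to 19.9 and 18.4 CPM (4.65 ± 0.22, edgeR adjusted p = 1.23e-05). Its exons overlap those of CERKL on the other strand, and the strand setting of the count is not given in the sources used here. No other line exceeded 3.53 CPM of ITGA4. LAMA1 rose from 2 and 1 counts to 63 and 73 counts, or to 3.19 and 3.75 CPM, with a log2 fold change of CPM + 1 of 2.06 (counting interval 1.70 to 2.32). ITGA1, ITGA5, ITGAV and LAMB2 rose by 2.04, 1.56, 1.56 and 1.31 on the log2 scale. Exons of ITGA1 overlap those of PELO on the same strand, so that its counts are uncertain. With HCC4006P1 replicate 1 left out, LAMB1 was lower by a log2 fold change of -0.32 ± 0.11 (edgeR adjusted p = 0.00684) and LAMB4 and LAMC3 did not pass (edgeR adjusted p = 0.558 and 0.848). In that fit the single parental library is assumed to vary like those of HCC4006ER.

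Over the 8 libraries of both pairs, edgeR tested whether the change in HCC4006ER differed from that in HepG2S3, and 22 of 30 members passed, where 54.2% of all 15696 genes did. The 8 members with opposite calls were picked on these same libraries, so their differences are a description and no further evidence. The difference was -11.35 ± 0.92 on the log2 scale for ITGB6, -9.18 ± 0.78 for LAMA4 and -3.31 ± 0.31 for ITGB4. It was 2.97 ± 0.28 for ITGAV. For ITGB6 and LAMA4 the HepG2 libraries held at most 3 counts, and their differences depend on the prior count.

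HCC4006GR, which derives from another stock of the same line, differed from its parent in the other direction for some members. LAMB3 was at 187 CPM in HCC4006P2 and 1054 CPM in HCC4006GR, a log2 fold change of CPM + 1 of 2.49 (counting interval 2.41 to 2.57). LAMA3 went from 101 to 151 CPM (0.57), ITGB6 from 449 to 941 CPM (1.06), ITGA2 from 820 to 1966 CPM (1.26), ITGB4 from 173 to 410 CPM (1.24) and ITGA6 from 349 to 707 CPM (1.02). A total of 5 members (ITGA2, ITGA6, ITGB6, LAMA4 and LAMB3) were 2-fold lower in HCC4006ER and 2-fold higher in HCC4006GR, as were 1.22% of 14052 genes. ITGA1, ITGA5, ITGA11 and LAMA1 were 2-fold higher in both, as were 2.70% of genes. ITGA5 had 37.1 CPM in HCC4006P2 and 219 CPM in HCC4006GR, and ITGA11 2.28 and 21.0 CPM. The parental stocks themselves stood apart: ITGB6 had 51.5 CPM in HCC4006P1 and 449 CPM in HCC4006P2, ITGAV 62.4 and 401 CPM, LAMB3 857 and 187 CPM, and ITGB4 792 and 173 CPM. With 1 library of HCC4006P2 and 1 of HCC4006GR, neither difference was tested.

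**Figure D4:**
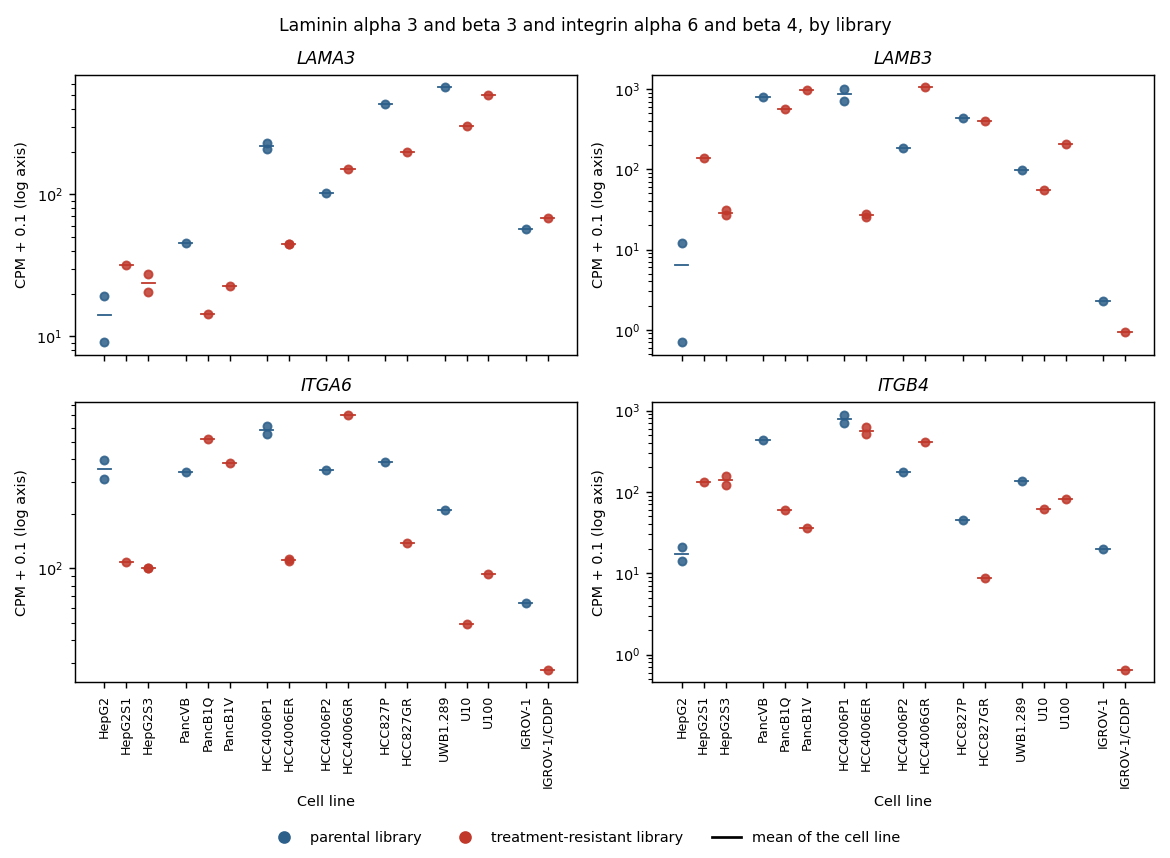
CPM + 0.1 on a log axis of LAMA3, LAMB3, ITGA6 and ITGB4 in each library (points) and the mean of each cell line (bars), blue for parental and red for treatment-resistant. In the HCC4006P1 family the resistant points lie below the parental ones for LAMA3, LAMB3 and ITGA6, in the HCC4006P2 family they lie above, and ITGB4 is lower in PancB1Q, PancB1V and IGROV-1/CDDP than in their parents.

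In HCC827GR, LAMA3 was lower and LAMB3 stayed within 2-fold. LAMA3 was at 434 CPM in HCC827P and 197 CPM in HCC827GR, a log2 fold change of CPM + 1 of -1.13 (counting interval -1.22 to -1.05), while LAMB3 was at 440 and 395 CPM (-0.15). ITGB6 was at 192 and 11.1 CPM (-4.00), and ITGB8, the other TGF-beta-activating partner of alpha V, at 2.77 and 77.6 CPM (4.38, counting interval 3.99 to 4.75). ITGAV itself was at 346 and 416 CPM. ITGB4 was at 45.1 and 8.75 CPM and ITGA6 at 387 and 138 CPM. ITGB5, a further partner of alpha V, was at 38.9 and 122 CPM.

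In the pancreatic lines ITGB4 was lower than in the parent, while LAMB3 stayed within 2-fold. ITGB4 was at 431 CPM in PancVB, 60.2 CPM in PancB1Q and 36.3 CPM in PancB1V, with log2 fold changes of CPM + 1 of -2.82 and -3.53. LAMB3 was at 788, 569 and 968 CPM in the same lines, whereas LAMA3 was at 45.1, 14.3 and 22.4 CPM. ITGB5 was at 371, 109 and 68.5 CPM, LAMA5 at 964, 463 and 454 CPM, LAMA4 at 96.1, 19.7 and 31.7 CPM, and ITGA3 at 1159, 490 and 471 CPM. ITGA6, the partner of ITGB4, was not lower in either, at 341 CPM in PancVB, 518 CPM in PancB1Q and 384 CPM in PancB1V. LAMA1 had 0 counts in all 3 libraries, and 3 counts would be 0.138 CPM in PancVB.

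With a pseudocount of 1 CPM, the ovarian pairs had fewer 2-fold changed members than the other pairs. In IGROV-1/CDDP the count depended on the pseudocount. In U100, 6 of 27 members were higher, beside 6.43% of all genes. ITGA6 was at 210 CPM in UWB1.289, 49.1 CPM in U10 and 93.1 CPM in U100, and the level in IGROV-1 was 64.5 CPM beside 27.4 CPM in IGROV-1/CDDP. LAMA1 was at 7.40 CPM in UWB1.289, 49.9 CPM in U10 and 20.8 CPM in U100. ITGB6 was at 107, 343 and 184 CPM in these lines and ITGB8 at 404, 764 and 857 CPM, the highest levels of ITGB8 in the series. In IGROV-1, ITGB4 was at 20.0 CPM and in IGROV-1/CDDP at 0.55 CPM (14 counts), a log2 fold change of CPM + 1 of -3.75 (counting interval -4.09 to -3.33). ITGA3 was at 18.4 and 39.0 CPM. LAMC1 and LAMB1 were at 1270 and 933 CPM in IGROV-1/CDDP, their highest levels in any line.

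**Figure D5:**
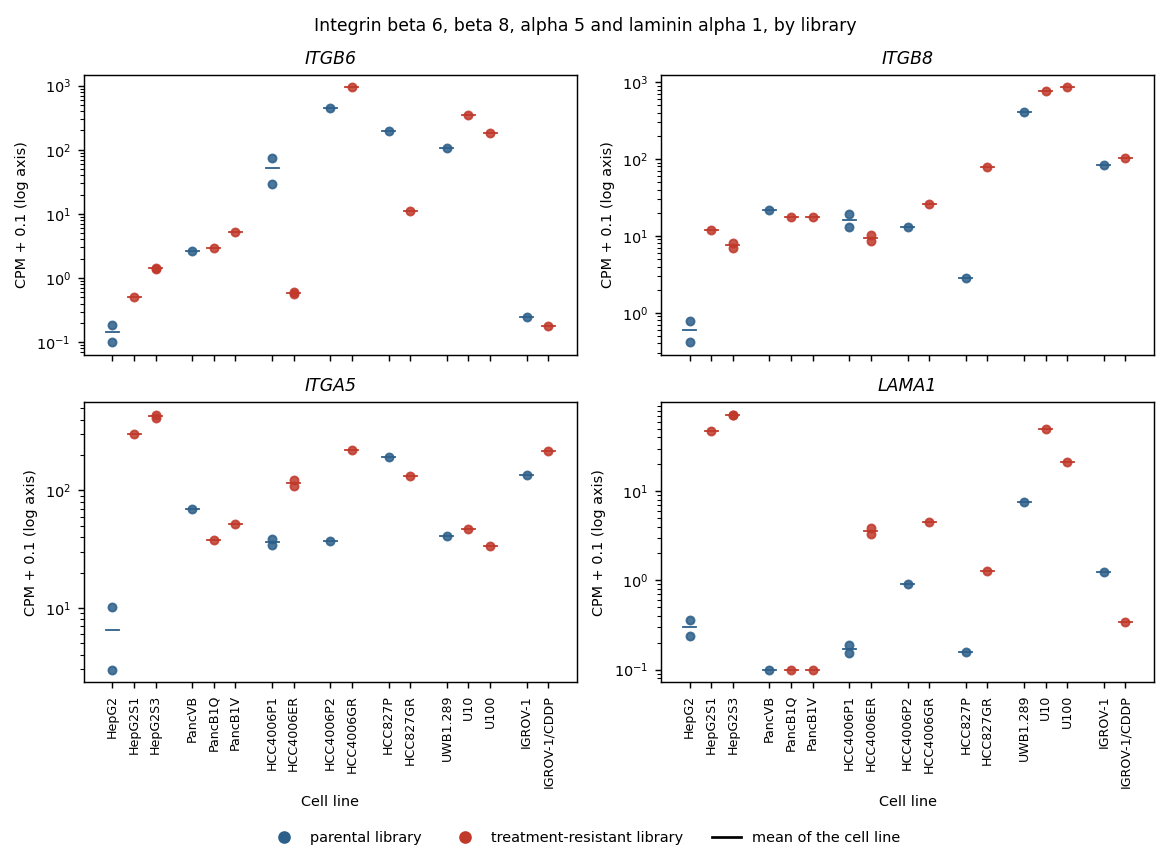
CPM + 0.1 on a log axis of ITGB6, ITGB8, ITGA5 and LAMA1 in each library (points) and the mean of each cell line (bars), blue for parental and red for treatment-resistant. ITGB6 is lower in HCC4006ER and HCC827GR than in their parents and higher in HCC4006GR and U10, and LAMA1 is higher in the resistant lines except in the PancVB family, where it has 0 counts, and in IGROV-1/CDDP.

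Among the chains of leukocyte integrins, ITGAL, ITGAM, ITGAX and ITGB7 reached at most 3.60, 6.09, 5.63 and 1.23 CPM in any line. ITGB2, the beta chain that ITGAL, ITGAM and ITGAX share, reached 132 CPM in U100 and 65.4 CPM in UWB1.289, and in these lines PTPRC was at 0.153 and 0.344 CPM. ITGAE was at 6.62 to 29.7 CPM in all lines, and its exons overlap HASPIN on the other strand. In HepG2S3 against HepG2, ITGAE rose (1.42 ± 0.24, edgeR adjusted p = 0.00415). ITGAL fell (-2.72 ± 0.46, edgeR adjusted p = 0.00428) from at most 2.18 CPM in HepG2. ITGB2 fell as well (-0.86 ± 0.20, edgeR adjusted p = 0.0143), a call kept in 7 of 9 alternatives.

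Taking 1 resistant and 1 parental profile for each of the 7 parental lines, edgeR with the parental line as a block called 0 of 34 members and 0 of 19829 genes (0%). At an unadjusted p under 0.05 stood 920 genes, of which 3 were members. These were LAMA1 (3.27 ± 1.34 on the log2 scale), LAMC3 (0.98 ± 0.33) and ITGA6 (-1.07 ± 0.46), each with an edgeR adjusted p of 0.994. DESeq2 called 78 genes higher and 17 lower, 0 of them members. A shared direction was not called for any subunit.

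The intracellular and matrix partners of the family were counted from a list of 33 genes. In HepG2S3, 11 of 33 rose and 14 fell by edgeR, beside 31.4% and 32.1% of all genes. The largest changes upwards were those of PARVB, a parvin that links integrins to actin (7.36 ± 0.29), of COL17A1, the hemidesmosome collagen (3.94 ± 0.39), and of TNS4, a tensin (2.74 ± 0.14). Downwards they were those of TGFB1I1, a paxillin relative (-8.64 ± 0.61), of NID1, the nidogen that joins laminin to collagen IV (-7.34 ± 0.50), and of SRC, the kinase (-5.37 ± 0.20). In HCC4006ER, 7 of 27 rose and 8 fell, beside 23.7% and 24.5% of all genes. NID2, LIMS2 and NID1 rose most (3.75 ± 0.22, 2.54 ± 0.38 and 2.45 ± 0.14), and TNS4, COL17A1 and FERMT1 fell most (-10.54 ± 0.48, -4.54 ± 0.22 and -2.99 ± 0.18). COL17A1, like ITGB4, was thus on opposite sides in the 2 comparisons, but it was low in HepG2 (0.098 CPM) and HepG2S3 (1.94 CPM). COL17A1 was at 143 CPM in HCC4006P2 and 360 CPM in HCC4006GR. PARVB was at 0.197 CPM in HepG2, TGFB1I1 at 0.016 CPM in HepG2S3 and TNS4 at 0.051 CPM in HCC4006ER. Fold changes to or from such levels depend on the prior count.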

How the data were processed

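RNA sequencing counts of 21 libraries from 17 cell lines were used. The authors mapped reads to hg19 with Bowtie and TopHat, or with STAR for 3′ end libraries, and counted reads per gene with HTSeq. The labels name a stranded kit for all libraries, and the annotation and strand setting are not given in the sources used here. The deposited values are whole counts, not normalized. Rows of reads on no gene, 28.0% to 42.8% of each file's sum, were left out. Of the Ensembl identifiers, 45100 were matched to GENCODE on GRCh37.

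CPM used the total on genes. The total of HCC4006P1 replicate 1 was raised for the 18.4% of counts that replicate 2 held in the stretch without counts. Replicates were averaged, and log2 fold changes used a pseudocount of 1 CPM, which understates changes of low genes. Counting intervals are 95% Wilson intervals and cover counting error only. The edgeR 4.0.16 quasi-likelihood test used filterByExpr and TMM, and genes with a Benjamini-Hochberg adjusted p below 0.05 were called. The HCC4006 test left out genes in the stretch. The 7 profile pairs were summed per parental line. On simulated counts with 200 genes changed 4-fold, all 200 were recovered in each of the 3 designs, with 7.41% (HepG2S3), 2.44% (HCC4006ER) and 4.31% (7 profiles) of calls false. The simulated spread was fixed and the same for all genes, and only well counted genes were changed. In the 7 profiles each gene changed alike in every parental line. The simulation therefore does not show how often changes of low genes, or changes that differ among lines, would be found.

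Replicate numbers follow the letters A and B. Another label gives both HepG2 libraries the same number, and likewise both HepG2S3 libraries. Named are members past an adjusted p of 0.05 in any edgeR test or 2-fold changed in at least 4 of 10 pairs (28 members), and the 3 partners with the largest change each way. The members, lists and motifs were chosen with earlier results of these data known. Results of 1 member are not reported here. The test between the 2 replicated pairs was added after seeing the data. Alternatives used DESeq2 1.42.0, RLE size factors, no filter, a replicate block, each library left out, 1 fit over all libraries, a pseudocount of 0.1 CPM and TMM library sizes. R 4.3.3 and Python 3.11.15 were used.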

Additional observations from a re-analysis of the deposited data

Results flagged for a closer look

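The changes of 8 members differed between the 2 replicated pairs, with calls in opposite directions in HepG2S3 and HCC4006ER and an edgeR test of the difference. The members were picked for these calls on the same 8 libraries, so the test adds no independent evidence. The share of all genes with such opposite calls was not counted. As the change in HCC4006ER minus that in HepG2S3, on the log2 scale, ITGB6 had -11.35, LAMA4 -9.18, ITGB8 -4.48, LAMA2 -4.12 and ITGB4 -3.31, and ITGAV had 2.97, ITGA1 2.75 and LAMB2 2.65. LAMA2 had at most 2.42 CPM in these 8 libraries. No cell line had 4 or more libraries, so that no test for a single distant library was made.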

How the results depend on the processing

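Direction was kept by all 22 members called in HepG2S3 and all 20 called in HCC4006ER under each alternative that gave a value. Of the single values, 13 of 198 lost the call in HepG2S3 and 42 of 240 in HCC4006ER. Members called lower in HepG2S3 numbered 7 to 14, and higher 10 to 13, with 1 library left out. The lowest was 7 lower without HepG2S3 replicate 2, against 12. In HCC4006ER the ranges were 7 to 12 lower and 8 to 11 higher, and the lowest was 7 lower without HCC4006ER replicate 2, against 11. ITGAX (edgeR adjusted p = 0.0485) kept its call in 2 of 12 alternatives and LAMA2 in 6 of 12. Deviations of same-numbered libraries correlated at 0.0075 in the HepG2 and 0.22 in the HCC4006 comparison, and the numbers were not taken to pair libraries. The replicate block gave 11 higher and 12 lower in HepG2S3 and 9 and 11 in HCC4006ER. With all genes kept and the replicate block, HCC4006ER had 0 members called in either direction. In that fit HCC4006P1 replicate 1 is at 0 for the stretch. With all genes kept and no block the counts were 8 higher and 8 lower. In the 7 profiles 0 members were called in each alternative run. With a pseudocount of 0.1 CPM, 2 members were 2-fold lower in HCC4006GR (against 1), and 3 were higher and 6 lower in IGROV-1/CDDP (against 1 and 3). TMM library sizes moved the median of all genes from 0.25 to -0.12 in HepG2S1, from 0.28 to -0.01 in HepG2S3, from -0.12 to 0.09 in PancB1Q and from 0.12 to 0.00 in HCC4006ER, and the share of 2-fold genes that were higher from 58.1% to 43.0%, 60.7% to 49.8% and 39.3% to 58.2% in the first 3. Member counts under TMM were 7 higher and 9 lower in HepG2S1, 10 and 8 in HepG2S3 and 1 and 7 in PancB1Q. Changes of members under about 1 CPM are limited by depth.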
